A study of Mus musculus with 6 samples.

Results

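Aminoacyl-tRNA synthetases are the enzymes that load each amino acid onto its tRNA. The genes were taken by symbol from the array's platform annotation, as a single letter followed by ars, arsa or arsb with an optional 1 or 2, together with Eprs, and 34 of the 19505 genes measured met this rule. Of these, 18 encode cytosolic enzymes and 16, whose symbols end in 2, encode mitochondrial ones. The rule itself uses symbols and no measured value, but it was chosen with earlier results of these data known. Expression had been measured in B16F10, a melanoma line of the mouse that makes pigment, after 48 h in untreated RPMI1640 medium (control) or with a compound, named SQ-diEG in the series title and di-sq in the sample labels, added at 2.5 µM or 40 µM. Each of the 3 groups held 2 single-colour arrays, replicates 1 and 2. All 6 arrays came from the same line with no other agent in the labels, and no label ties the replicates to separate cultures. A p-value here therefore reflects only how far replicate arrays spread, which may be technical.

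In the cytosol most synthetases work alone, while several others (among those measured here Eprs, Iars, Kars, Lars, Mars1, Qars and Rars) sit in a large multi-synthetase complex held together by the scaffold proteins AIMP1, AIMP2 and AIMP3, the last encoded by Eef1e1. Mitochondria charge their own tRNAs with a separate, nuclear-encoded set of enzymes, although Gars and Kars each serve both compartments. When amino acids run short or unfolded protein collects in the endoplasmic reticulum, the kinases of the translation factor eIF2alpha slow translation and let the transcription factor ATF4 accumulate. ATF4 is known to raise many cytosolic synthetase genes along with genes of amino acid synthesis and import.

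The DNA element through which ATF4 acts, a composite of half-sites for C/EBP and ATF factors, was searched as TGATGNAA, or TTNCATCA when read on the other strand, in RefSeq promoter windows of build GRCm38.p6 reaching from 250 bases before to 50 bases after the start. A window was held for 25 of the 34 synthetase genes. The letters occurred in 4 of the 11 cytosolic genes with a window (36.4%), in 0 of the 14 mitochondrial genes, in 3 of 14 ATF4 targets of amino acid supply (Asns, Slc1a4 and Slc7a11) and in 1219 of 27025 genes with a window (4.51%). A match is only a run of letters and does not show that a factor binds there. The 4 stretches are shown in gene direction because values of these genes are set beside those of genes without the letters further on, with the matching letters in capitals.
Gars (glycine), chr6:55037960-55037989, plus strand: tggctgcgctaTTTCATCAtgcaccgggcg
Iars (isoleucine), chr13:49682126-49682155, plus strand: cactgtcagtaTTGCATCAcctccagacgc
Tars (threonine), chr15:11399655-11399684, minus strand: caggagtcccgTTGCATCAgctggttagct
Yars (tyrosine), chr4:129189895-129189924, plus strand: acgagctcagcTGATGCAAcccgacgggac

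The pigment cell identity of the samples was visible on every array. Of 9 pigment cell markers, 8 (all but Gpr143) lay above background on all 6 arrays. Background was taken per array as the level that 95% of its negative control features stayed under, between 9.80 and 10.06 on the log2 scale. The 15 measured markers of fibroblasts, keratinocytes, leukocytes and endothelium lay below it on all 6 arrays, between 2.76 and 5.94. The median over all features was 5.92 to 5.98 per array, and arrays give no read depth, so their number limits the precision. The replicate 1 arrays of both doses differed from the rest in their spiked controls. The hybridisation controls had means of 10.4 at 2.5 µM and 10.3 at 40 µM there, and of 10.8 to 11.2 on the remaining arrays. For the poly-A controls these were 5.65, 5.63 and 6.35 to 7.42. These 2 arrays also had a wider spread of values over genes (interquartile range 5.2 and 5.43, against 4.9 to 4.94 on the rest). More genes lay above background on them, 22.4% and 23.4% against 20.2% to 20.6%. Both are called low arrays, after their spiked controls, and the part of these differences in the results was not tested. In bulk RNA, fewer cells with a transcript and less of it per cell cannot be told apart.

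The 2 sets of enzymes differed in how many genes rose above background. On each of the 6 arrays 17 synthetase genes did, and they were the same genes throughout, 16 of the 18 cytosolic ones and Iars2 alone of the 16 mitochondrial ones. Farsa, which encodes the catalytic subunit of the cytosolic phenylalanine enzyme, lay between 9.37 and 9.71, and Mars1, the cytosolic methionine enzyme, between 7.65 and 9.23. Of all genes measured, 20.2% to 23.4% per array lay above background. Among the mitochondrial genes, 12 lay above the median of the negative controls (5.98 to 6.10) on all 6 arrays, Wars2 did on 4, and Aars2, Ears2 and Pars2 did on none, so that changes of these last are between background values. Levels of different genes come from different probes and were not ranked.

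The comparison of 40 µM with control asked whether the higher dose changed the charging enzymes. No synthetase passed the test, and no gene of the 19505 did (limma, Benjamini-Hochberg adjusted p under 0.05; 0% of genes called), the smallest adjusted p of a synthetase being 0.427. At an unadjusted p under 0.05, 0 of 34 synthetases differed, against 5.18% of all genes higher and 6.86% lower. The estimates lay mostly on the positive side. Of 18 cytosolic genes 16 had a log2 change above 0, with a median of 0.18 and a range of -0.34 to 0.87. Of 16 mitochondrial genes 13 did, with a median of 0.16 and a range of -0.46 to 0.82. Over all genes the median was -0.01, with 48.7% above 0, and over the 3629 genes above background on all arrays it was 0.04, with 1984 above 0. Both arrays at 40 µM lay above both controls for 9 synthetases (22.2% of all genes) and below both for 4 (26.3% of all genes). The 95% interval of the difference lay within a 2-fold change either way for 26 of the 34 genes. It was wider for Cars2, Farsb, Kars, Mars1, Rars, Tars2, Wars2 and Yars2, for which a 2-fold change could not be told from none.

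**Figure D1:**
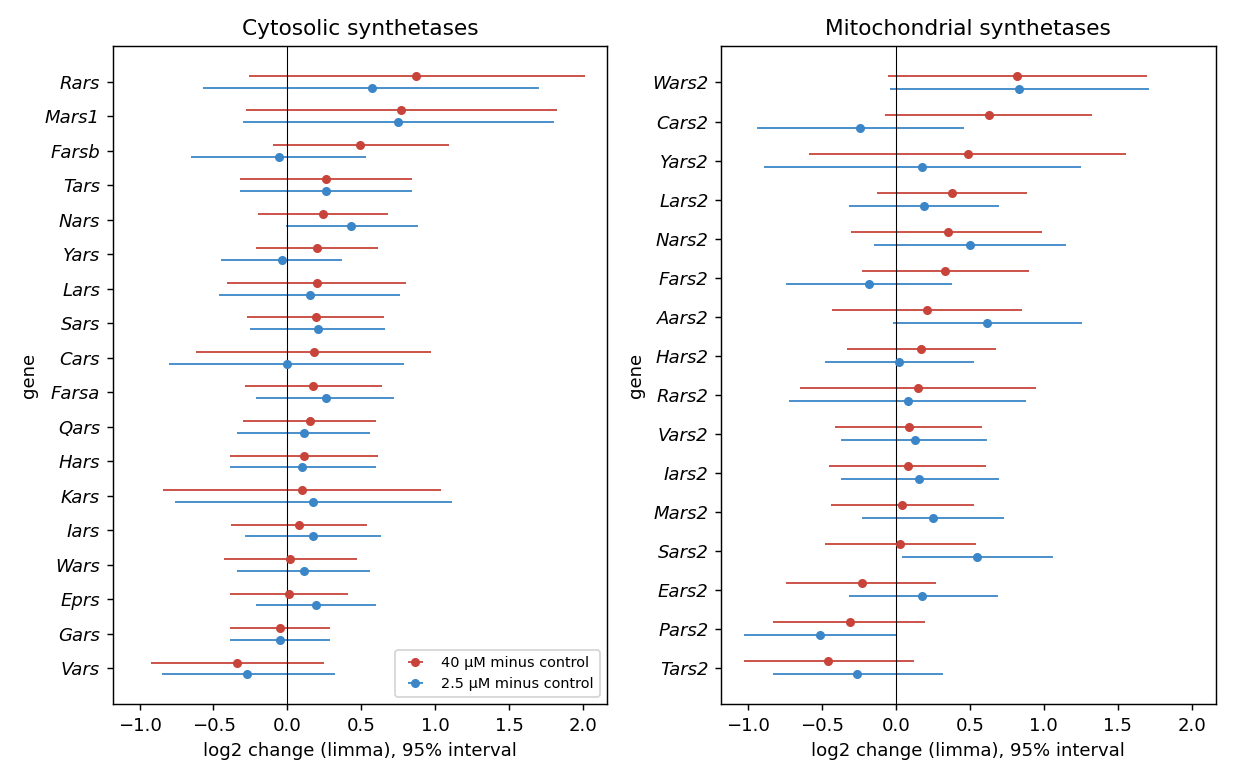
Each point is a gene's log2 change against control in the limma fit at 40 µM (red) or 2.5 µM (blue), with its 95% interval as a bar, for 18 cytosolic and 16 mitochondrial synthetases (2 arrays per group). Nearly all intervals cross 0, and those of Rars, Mars1 and Wars2 reach furthest to the right.

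Among the cytosolic enzymes the largest estimates at 40 µM were those of Rars and Mars1, both from the multi-synthetase complex. Rars, the arginine enzyme, lay at 12.03 and 11.92 in control, at 12.81 and 12.28 at 2.5 µM and at 13.66 and 12.04 at 40 µM (log2 values of replicates 1 and 2, in this order throughout). All 4 treated arrays were above both controls, by only a small margin on 40 µM replicate 2, and the 2 doses overlapped. The log2 change was 0.87 (standard error 0.48; 95% interval -0.26 to 2.01; limma, adjusted p = 0.483). Mars1 lay at 8.00 and 7.65 in control, at 8.96 and 8.20 at 2.5 µM and at 9.23 and 7.97 at 40 µM, so that the 40 µM arrays fell on both sides of the upper control. It differed by 0.77 (standard error 0.45; limma, adjusted p = 0.502). For both genes the low arrays were the highest of the 6.

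Farsb encodes the second subunit of the cytosolic phenylalanine enzyme, and it was the cytosolic gene with the smallest p at 40 µM. It lay at 10.98 and 10.96 in control, at 10.92 and 10.91 at 2.5 µM and at 11.81 and 11.12 at 40 µM. Both 40 µM arrays were above the other 4 arrays, by far more on replicate 1, and the log2 change was 0.49 (standard error 0.25; limma, adjusted p = 0.457). Farsa, its partner in the same enzyme, had a log2 change of 0.17 with an interval of -0.29 to 0.64. Nars, the asparagine enzyme, lay at 14.81 and 14.78 in control, at 15.43 and 15.02 at 2.5 µM and at 15.08 and 14.99 at 40 µM. All 4 treated arrays were above both controls, with a log2 change of 0.24 at 40 µM and 0.43 at 2.5 µM (limma, adjusted p = 0.598 and 0.522). The valine enzyme gene Vars had the lowest cytosolic estimate, -0.34, and lay at 11.89 and 12 in control, at 11.67 and 11.69 at 2.5 µM and at 11.27 and 11.94 at 40 µM. Gars, which serves cytosol and mitochondria, varied least, within 0.11 over all 6 arrays, and lay at 16.58 and 16.53 in control, at 16.49 and 16.52 at 2.5 µM and at 16.53 and 16.47 at 40 µM.

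**Figure D2:**
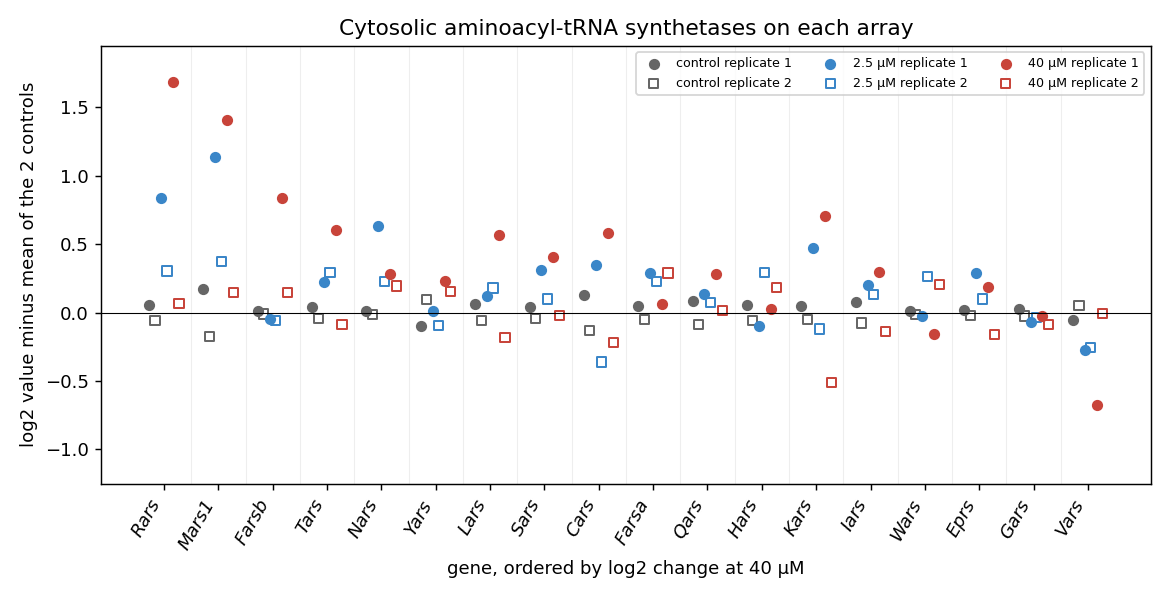
Points show each array's log2 value minus the mean of the 2 controls for the 18 cytosolic synthetases, with filled circles for replicate 1 and open squares for replicate 2 (grey control, blue 2.5 µM, red 40 µM). The filled red circle (40 µM replicate 1) is the highest point for 11 of the 18 genes, and the open red square (40 µM replicate 2) for 1.

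The 2 arrays at 40 µM differed in where the cytosolic genes lay. The 18 genes had a median of 0.29 over the control mean on replicate 1 and of 0.01 on replicate 2. At 2.5 µM these medians were 0.22 and 0.12. On 40 µM replicate 1, 14 of 18 genes lay above both controls and 3 below both, while over all genes 40.8% lay above and 47.2% below. On replicate 2 these counts were 7 and 7, against 40.7% and 43.1% of all genes. The replicate 1 array at 40 µM was the highest of the 6 for 11 of 18 cytosolic genes (61.1%), against 24.5% of all genes. Most cytosolic synthetases lay above background, and among the 3629 genes above it on all arrays that share was 36.1%. Of these 3629 genes, 1858 lay above both controls and 1530 below both on 40 µM replicate 1. On replicate 2 these counts were 1506 and 1654. Kars, the lysine enzyme, lay at 12.17 and 12.07 in control, at 12.59 and 12 at 2.5 µM and at 12.83 and 11.61 at 40 µM, above both controls on the first array of the higher dose and below both on the other. Within the group, the 2 arrays at 40 µM differed by a median of 0.43 over the cytosolic genes, against 0.10 in control and 0.15 at 2.5 µM. Over all genes these gaps were 0.37, 0.12 and 0.27, widest at 40 µM as well. Without 40 µM replicate 1 the cytosolic median was 0.01, and with a term for the low arrays it was 0.09 with no synthetase past the threshold. Without 40 µM replicate 2, 6 synthetases passed (limma, adjusted p under 0.05, with the lone array assumed to vary like the other groups), Farsb, Lars, Rars, Tars and Yars2 higher and Vars lower, where 11.5% of all genes passed. Without both low arrays 5 passed, Cars2, Lars2 and Wars2 higher and Kars and Tars2 lower, where 19.2% of all genes passed and the error came from the 2 controls alone.

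Among members of the multi-synthetase complex the 2 arrays at 40 µM differed by a median of 0.75, against 0.36 for the other cytosolic genes and 0.37 over all genes. All 7 measured had a positive estimate at 40 µM (48.7% of all genes), with a median of 0.15. All 7 did at 2.5 µM as well (51.2% of all genes), with a median of 0.17. The 2 comparisons share their controls. On 40 µM replicate 1 all 7 lay above both controls, with a median of 0.57, and on replicate 2 just 1 did and 4 lay below both, with a median of -0.14 (all genes as above, 40.8% above both on replicate 1, and 40.7% above and 43.1% below on replicate 2). Cytosolic enzymes outside the complex had medians of 0.24 and 0.15 on these arrays (11 genes). By the fold of the catalytic domain, the 9 class I and 8 class II cytosolic genes each had a median log2 change of 0.18 at 40 µM. Eprs, a fusion of a class I and a class II enzyme for glutamate and proline, had 0.01 with an interval of -0.39 to 0.41.

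The scaffold genes of that complex were all estimated above control at 40 µM, and none passed over all genes. Aimp2 lay at 9.77 and 9.76 in control, at 10.24 and 9.76 at 2.5 µM and at 10.30 and 10.33 at 40 µM. These values straddled background, with 0 control arrays, 1 array at 2.5 µM and both arrays at 40 µM above it. Both 40 µM arrays agreed closely and exceeded the other 4, with a log2 change of 0.55 (standard error 0.22; limma, unadjusted p = 0.0421, adjusted p = 0.408). Aimp1 differed by 0.67 (standard error 0.36), by 1.17 on replicate 1 and 0.16 on replicate 2, and its 7.45 to 8.75 lay below background on all arrays. Eef1e1 lay at 11.97 and 11.86 in control, at 12.22 and 11.21 at 2.5 µM and at 13.25 and 12.05 at 40 µM, a log2 change of 0.74 (standard error 0.45; limma, adjusted p = 0.518). Its excess lay mainly on the low array, as for Rars.

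**Figure D3:**
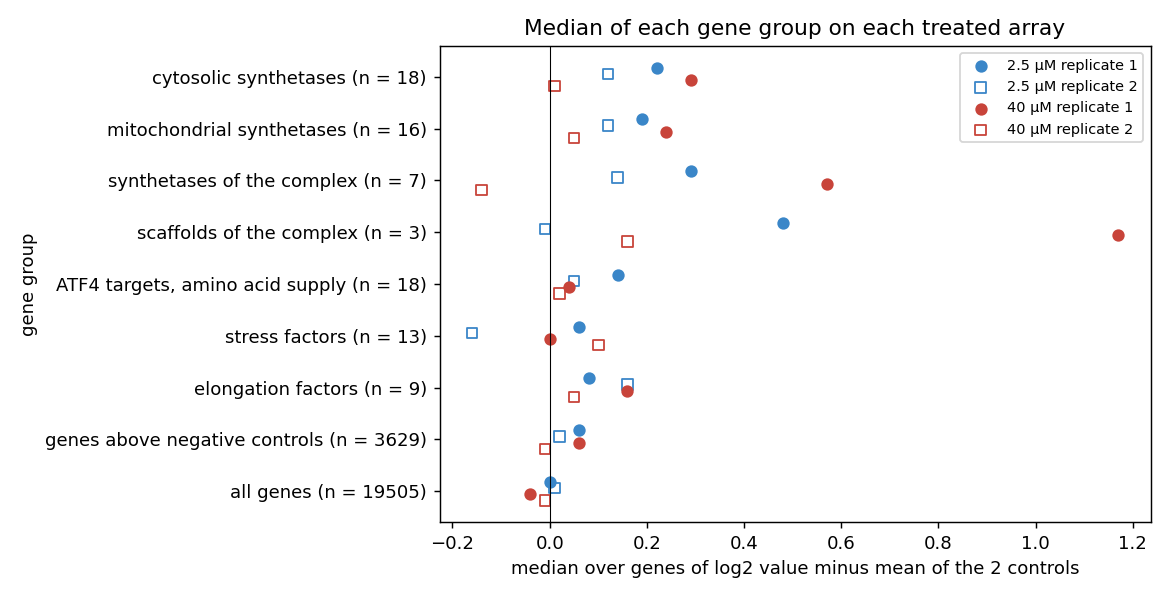
Each point is the median over a gene group of the log2 value minus the mean of the 2 controls, on each of the 4 treated arrays. The synthetases of the complex and its scaffolds stand furthest right on 40 µM replicate 1, at 0.57 and 1.17, and at -0.14 and 0.16 on replicate 2, while all genes stay between -0.04 and 0.01.

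Of the mitochondrial enzymes, Wars2 and Cars2 had the smallest p at 40 µM of all 34 genes. Wars2, the mitochondrial tryptophan enzyme, lay at 5.89 and 5.71 in control, at 7.18 and 6.09 at 2.5 µM and at 6.82 and 6.43 at 40 µM. All 4 treated arrays were above both controls, at values below background, with a log2 change of 0.82 at 40 µM and 0.83 at 2.5 µM (standard error 0.37 for each; limma, adjusted p = 0.427 and 0.526). Cars2, the mitochondrial cysteine enzyme, lay at 6.78 and 6.72 in control, at 6.64 and 6.38 at 2.5 µM and at 7.0 and 7.77 at 40 µM. Its 40 µM arrays exceeded all others, here by more on replicate 2, and its log2 change was 0.63 (standard error 0.30; limma, adjusted p = 0.439). Tars2, the mitochondrial threonine enzyme, lay at 7.94 and 8.12 in control, at 7.89 and 7.66 at 2.5 µM and at 7.80 and 7.34 at 40 µM, below both controls on all 4 treated arrays. Its log2 change at 40 µM was -0.46 (standard error 0.24; limma, adjusted p = 0.468).

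Lars2, which charges leucine in mitochondria, lay at 8.55 and 8.58 in control, at 8.88 and 8.63 at 2.5 µM and at 8.80 and 9.09 at 40 µM, with a log2 change of 0.38 (standard error 0.22) at the higher dose. Fars2, the mitochondrial phenylalanine enzyme, lay at 8.24 and 8.29 in control, at 8.32 and 7.85 at 2.5 µM and at 8.72 and 8.48 at 40 µM, a log2 change of 0.33. For both genes the 40 µM arrays were above the controls on either replicate. Pars2, the proline enzyme, lay at 5.97 and 5.90 in control, at 5.28 and 5.56 at 2.5 µM and at 5.59 and 5.66 at 40 µM, lower on every treated array but between background values. Yars2, the tyrosine enzyme, lay at 6.71 and 6.61 in control, at 6.60 and 7.08 at 2.5 µM and at 7.88 and 6.41 at 40 µM, on opposite sides of the controls as Kars was. Iars2, the 1 mitochondrial gene above background, had a log2 change of 0.08 with an interval of -0.45 to 0.61. On the treated arrays the median of the 16 genes against control was 0.24 and 0.05 at 40 µM and 0.19 and 0.12 at 2.5 µM.

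**Figure D4:**
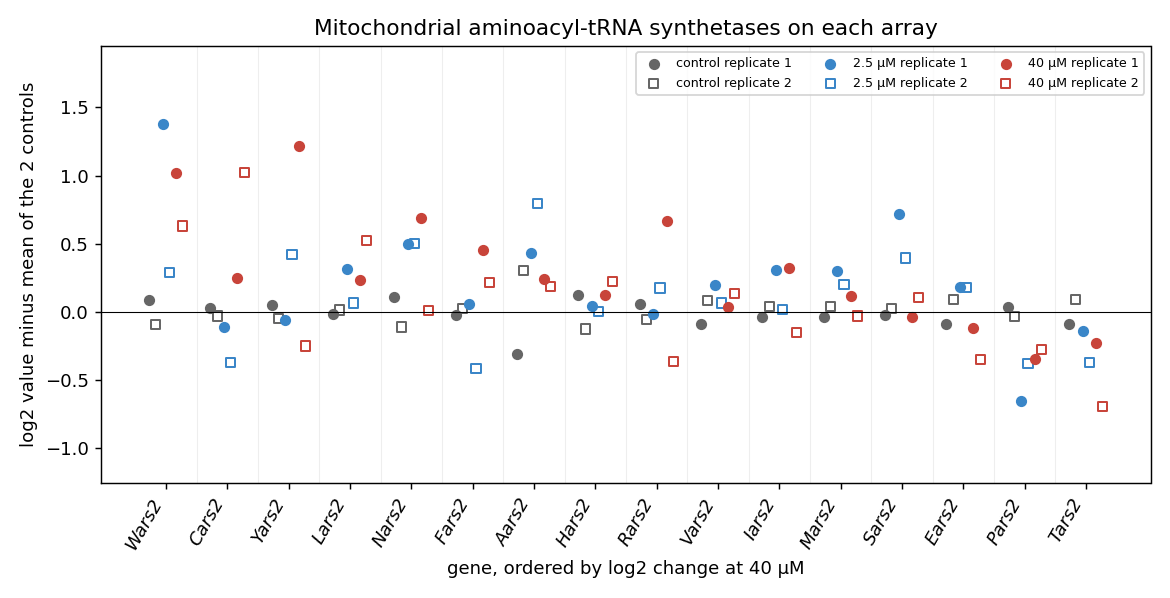
Points show each array's log2 value minus the mean of the 2 controls for the 16 mitochondrial synthetases, drawn as for the cytosolic genes. Wars2 and Lars2 lie above 0 on all 4 treated arrays and Tars2 and Pars2 below 0, whereas Yars2 and Rars2 have the 2 arrays at 40 µM on opposite sides.

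Cytosolic and mitochondrial enzymes for the same amino acid were set in 16 pairings, with Fars2 and Eprs each in more than 1. Most estimates of both sets were positive at 40 µM, so a shared sign does not show a link within a pair. Of the 16 pairings 12 had estimates of the same sign at 40 µM, and 9 did without 40 µM replicate 1. For methionine, Mars1 and Mars2 had log2 changes of 0.77 and 0.04 at 40 µM, and of 0.14 and -0.03 without that array. For arginine, Rars and Rars2 had 0.87 and 0.15, and 0.06 and -0.37 without it. For tryptophan the mitochondrial estimate was the larger, with 0.02 for Wars and 0.82 for Wars2, and 0.20 and 0.63 without that array. For threonine Tars had 0.26 and Tars2 -0.46, and -0.08 and -0.69 without it. These 4 pairs were chosen after their values were seen, and no difference between the members of a pair was tested.

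The comparison of 2.5 µM with control put the same question at the lower dose, and no synthetase and no gene passed (limma, 0% of genes called; smallest adjusted p of a synthetase 0.509). At an unadjusted p under 0.05, 1 of 34 synthetases was higher and 0 were lower, against 4.24% and 5.38% of all genes. That gene was Sars2, the mitochondrial serine enzyme, at 7.61 and 7.66 in control, at 8.35 and 8.03 at 2.5 µM and at 7.60 and 7.74 at 40 µM. Both arrays of the lower dose were above both controls, while the arrays of the higher dose lay just below and just above them, with a log2 change of 0.55 (standard error 0.22) at 2.5 µM (limma, adjusted p = 0.509) and 0.03 at 40 µM. Aars2, the mitochondrial alanine enzyme, lay at 3.92 and 4.53 in control, at 4.66 and 5.02 at 2.5 µM and at 4.47 and 4.41 at 40 µM, values below the median of the negative controls. Both arrays at 2.5 µM lay above both controls for 16 synthetases (27.1% of all genes), 9 cytosolic and 7 mitochondrial, and below both for 6 (25.9% of all genes). The median log2 change was 0.16 for cytosolic and 0.17 for mitochondrial genes, against 0.01 over all genes, of which 51.2% lay above 0. Estimates above 0 were found for 13 of 18 cytosolic and 12 of 16 mitochondrial genes. Without both low arrays 5 synthetases passed, Nars, Rars, Tars and Wars higher and Fars2 lower, where 20.5% of all genes passed (limma, adjusted p under 0.05).

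The comparison of 40 µM with 2.5 µM asked whether the doses differed, and no gene passed (limma, 0% of genes called; smallest adjusted p of a synthetase 0.854). At an unadjusted p under 0.05, Cars2 was higher by 0.87 (standard error 0.30) and Sars2 had a log2 change of -0.52 (standard error 0.22), where 2.34% of all genes were higher and 3.28% lower. Cars2 was higher at 40 µM on both arrays, at 7.0 and 7.77 against 6.64 and 6.38. Farsb and Fars2, which charge phenylalanine in cytosol and mitochondria, had log2 changes of 0.55 and 0.52 between the doses, with 95% intervals of -0.04 to 1.15 and -0.05 to 1.08. The median was 0.00 for cytosolic and -0.03 for mitochondrial genes. Among the arrays with the same replicate number, 13 of 18 cytosolic genes were higher at 40 µM in the pair of replicates 1 (49.9% of all genes) and 5 of 18 in the pair of replicates 2 (48.5% of all genes). Leaving out both low arrays sets those replicate 2 arrays alone against each other, and 7 of 16 mitochondrial genes were then higher at 40 µM. The spread in that fit comes from the 2 controls, which are not part of this comparison, so its p-values are not given here.

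Genes that work beside the synthetases gave 1 clearer estimate. It was that of Qrsl1, among 11 measured genes of other steps in tRNA charging. Qrsl1 encodes a subunit of the mitochondrial enzyme that makes glutaminyl-tRNA by amidation, in place of a mitochondrial glutaminyl-tRNA synthetase. The gene lay at 6.76 and 6.88 in control, at 7.86 and 7.82 at 2.5 µM and at 7.67 and 7.94 at 40 µM. All 4 treated arrays were above both controls by more than the spread within any group, although all 6 values lay below background. The log2 change was 1.02 at 2.5 µM and 0.98 at 40 µM with a standard error of 0.21 for each (limma, unadjusted p = 0.00188 and 0.00236, adjusted p = 0.479 and 0.334). Its partner subunits Gatb and Gatc had log2 changes of 0.12 and 0.16 at 40 µM. Dtd2, a proofreading deacylase for mischarged tRNA, had log2 changes of -0.66 and -0.60 at 2.5 and 40 µM (limma, adjusted p = 0.506 and 0.411). It too lay below background on all 6 arrays. Of this list 8 of 11 estimates were above 0 at 40 µM (48.7% of all genes), with a median of 0.16. Among 9 elongation factors, which carry charged tRNA to the ribosome and move it on, 0 passed over all genes, and Eef1g had a log2 change of 0.66 at 2.5 µM and 0.43 at 40 µM (limma, adjusted p = 0.479 and 0.453), the latter 0.71 on replicate 1 and 0.14 on replicate 2.

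The other genes of the ATF4 response were described next to the synthetases, since that response is known to raise both. Atf4 itself lay at 16.65 and 16.56 in control, at 16.67 and 16.68 at 2.5 µM and at 16.80 and 16.81 at 40 µM. The 40 µM arrays were the highest, with a log2 change of 0.20 and an interval of -0.14 to 0.54; ATF4 is controlled largely through translation, which arrays do not measure. Of 18 targets in amino acid supply, 13 had estimates above 0 at 40 µM (48.7% of all genes), with a median of 0.07. At an unadjusted p under 0.05 (limma), 0 were higher and 1 was lower, against 5.18% and 6.86% of all genes. After adjustment over all genes 0 passed. The lower gene was Slc7a3, a cationic amino acid transporter, with -0.66 between background values. Asns, asparagine synthetase and a standard ATF4 target, lay at 16.47 and 16.52 in control, at 17 and 16.69 at 2.5 µM and at 17.53 and 16.46 at 40 µM. Like Rars it was high on 40 µM replicate 1 and near the controls on replicate 2, with a log2 change of 0.50 (standard error 0.33; limma, adjusted p = 0.541). Slc7a11, the cystine importer, had 0.36 at 40 µM, on both arrays above control at 15.33 and 15.59 against 15.07 and 15.13.

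Of 13 stress factors of the response 8 had estimates above 0 at 40 µM (48.7% of all genes), with a median of 0.08. In that comparison 0 passed at either threshold (limma), where 5.18% of all genes were higher and 6.86% lower at the unadjusted one. Ddit3 (CHOP) had 0.08 with an interval of -0.36 to 0.51, and Chac1, a glutathione-degrading target, had 0.58 with an interval of -0.30 to 1.45, at 10.31 and 9.36 at 40 µM against 9.18 and 9.33 in control. Chac1 lay above background on 1 of the 6 arrays, and without 40 µM replicate 1 its change was 0.10. Atf3 was higher by 0.68 at 2.5 µM with a standard error of 0.20, at 11.81 and 11.86 against 11.10 and 11.22 in control (limma, unadjusted p = 0.0102, adjusted p = 0.479). The eIF2alpha kinases and phosphatase subunits had a median of -0.06 over 6 genes. The 4 cytosolic synthetase genes with the element shown above, Gars, Iars, Tars and Yars, had log2 changes of -0.05, 0.08, 0.26 and 0.20 at 40 µM, with a median of 0.14. The 7 cytosolic genes whose window held no such letters had a median of 0.17 and a range of 0.01 to 0.77. The 7 cytosolic genes without a window, Rars and Vars among them, had a median of 0.18 and a range of -0.34 to 0.87. Whether those hold the letters is not known.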

How the data were processed

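Per the submitters' processing notes, the authors used RMA (background correction, quantile normalization and a summary per transcript cluster), and the deposited values are on the log2 scale. Transcriptome Analysis Console and Affymetrix Expression Console are listed in the same notes, with no version. Values reached above 16, the log2 maximum of a scanner image. How they did is not given in the sources used here, so folds are on the deposited scale. Some description fields name another treatment than title, source name and treatment, which were followed. Of 22206 transcript clusters 19572 had exactly 1 gene symbol. The other 2634, with none or several, were left out. Where a gene had several clusters (55 genes, 0 synthetases), that with the largest mean was kept. No level filter was set, and 19505 genes entered the tests.

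Tests used limma (version 3.58.1, R version 4.3.3), with a mean for each of 3 groups, a variance prior following the level (3 residual and 4.11 prior degrees of freedom) and two-sided p-values, adjusted over all genes (Benjamini-Hochberg, threshold 0.05). The script was tested on simulated data. All synthetases could be named. Values on every array were given for the 8 with the smallest p at 40 µM, the 4 with the smallest p in each other comparison, and, chosen after their values were seen, Kars, Yars2, Vars and Gars. Of 89 genes on related lists and marker lists 84 were measured. Members and lists were chosen with earlier results of these data known. Same-numbered arrays deviated together between the doses (correlation of deviations from group means 0.39 across genes) but not with control (0.00 and -0.01), and nothing in the labels pairs them, so no block was used. Alternatives changed normalization, filter, weights, variance prior and the arrays or terms in the fit.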

Additional observations from a re-analysis of the deposited data

How the results depend on the processing

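No gene passed the adjusted threshold in any of the 3 comparisons (limma) with the replicate block, quantile normalization again, centring on the median gene, either filter on level, array weights, no variance trend, the 2 groups only or the mean of a gene's features. With a term for the low arrays 1 gene, no synthetase, passed between the doses. Without both low arrays 3749 genes passed at 40 µM, 3991 at 2.5 µM and 2965 between the doses, among them 5, 5 and 8 synthetases. The genes that passed were 19.2%, 20.5% and 15.2% of all genes, in the same order. In that fit each dose has 1 array and the spread comes from the 2 controls, which differed less than the treated arrays. Those controls are not part of the comparison between the doses. The counts of synthetases in that fit are therefore not read as a result about the synthetases. Leaving out 1 array at a time gave 0 to 2235 genes and 0 to 6 synthetases at 40 µM, the upper values without 40 µM replicate 2, and 0 in the other comparisons.

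Synthetases at an unadjusted p under 0.05 (limma) numbered 0 at 40 µM, 1 at 2.5 µM and 2 between the doses. Of all genes, 5.18% were higher and 6.86% lower at 40 µM, and 4.24% and 5.38% at 2.5 µM. Between the doses the shares were 2.34% and 3.28%. With the replicate block, for which nothing but the number pairs the arrays, the counts of synthetases were 3, 4 and 2. Quantile normalization gave 2, 3 and 3, centring 0, 2 and 1, and the filter at the negative controls, which leaves fewer genes, 0 in each. Array weights gave 1, 6 and 1, as did the 2 groups only. No variance trend gave 2 at 2.5 µM, the term for the low arrays 2, 2 and 4, and leaving out both low arrays 10, 14 and 15. With 1 array left out the counts ran from 0 to 11, 0 to 6 and 1 to 9. The shares of all genes under these alternatives are not given here, so the counts are not read as a result about the synthetases. The cause of these shifts was not tested.

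Both medians stayed above 0 against control under every alternative run. At 40 µM the mitochondrial median was 0.06 after quantile normalization and 0.05 without both low arrays, where the cytosolic median was 0.01. At 2.5 µM the mitochondrial median was 0.09 after quantile normalization, 0.08 with the term for the low arrays and 0.12 without them, and the cytosolic median was 0.04 with that term. With 1 array left out, the cytosolic and mitochondrial medians ran from 0.01 to 0.29 and 0.05 to 0.24 at 40 µM, from 0.10 to 0.22 and 0.12 to 0.21 at 2.5 µM, and from -0.22 to 0.19 and -0.30 to 0.13 between the doses.

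Single estimates turned sign among the synthetases and among all genes. At 40 µM 11 of the 34 synthetases did without 40 µM replicate 1, reaching -0.51 for Kars (23.7% of all genes turned). With the term for the low arrays 8 did (16.1% of all genes), and without 40 µM replicate 2, 2 did (14.6%). At 2.5 µM 1 did without 2.5 µM replicate 1 (17.9%), 7 without 2.5 µM replicate 2 (15.2%) and 5 with the term (19.5%). Between the doses 12 did without both low arrays (26%). When a treated array was left out 4 to 12 did, against 16.7% to 27.2% of all genes. Among the genes with the smallest p, Sars2 at 40 µM was -0.15 after quantile normalization, -0.02 with the term for the low arrays and -0.04 to 0.10 with 1 array left out, and Aars2 was -0.09 to 0.52 with 1 array left out. At 2.5 µM Fars2 was -0.42 to 0.05 with 1 array left out. Between the doses Mars1 was -0.06 after quantile normalization and Wars2 0.01 after centring, and without both low arrays Wars2, Rars and Mars1 were 0.34, -0.24 and -0.22. With 1 array left out, Wars2 ran from -0.55 to 0.53, Rars from -0.50 to 1.11, Mars1 from -0.60 to 0.66, Nars from -0.40 to 0.01 and Tars2 from -0.43 to 0.03. Signal limits the mitochondrial genes most, as 15 of 16 lay below background on every array.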
